A study of Homo sapiens with 18 samples.

Results

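The mitosis genes described here were 38 protein-coding genes whose products carry a cell through mitosis and cytokinesis, taken by symbol from a fixed list out of the 36601 gene identifiers in the count tables. That list was chosen with earlier results of these data known. Poly(A) RNA was sequenced from 3 human cholangiocarcinoma lines, cancers of the bile duct epithelium, which the labels place in the bile duct (HuCCT1), the liver (YSCCC) and the biliary tract (KKU-100). Each line carried a stable lentiviral short hairpin, either a control (shControl) or a hairpin against RNF213 (shRNF213), a very large E3 ubiquitin ligase, and each of the 6 groups had 3 biological replicates, 18 libraries in all. HuCCT1 and YSCCC grew in RPMI-1640 and KKU-100 in Ham's F12, all with fetal bovine serum, so for KKU-100 line and medium cannot be told apart. A single RNF213 hairpin was used per line and its sequence was not used here, and the labels list the control libraries as wild type although these cells too carried a lentiviral hairpin.

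Most mitosis genes are transcribed little in G1 and strongly in G2 and M phase, so their level in a whole culture follows the share of cells that are dividing. CDK1 with the cyclins drives entry, FOXM1 is a transcription factor that activates many of the other members, kinesins and their partners build the spindle, and the kinetochore joins it to the centromere. The spindle checkpoint holds the anaphase-promoting complex until every chromosome is attached, after which cyclin B is destroyed and the midzone proteins cut the cell apart. In such bulk RNA, fewer dividing cells and less mitosis RNA per cell cannot be told apart.

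The libraries held 21056732 to 25502097 gene counts, and no pair of replicates agreed within sampling noise. Levels are given below in CPM, counts scaled to library size with the trimmed mean of M values (TMM) method, with replicates in the order 1, 2 and 3. RNF213 itself stood at 394, 1260.4 and 429.6 CPM in HuCCT1 shControl against 277, 423 and 284 in shRNF213. It was at 429.6, 381 and 529 against 152, 237 and 215 in YSCCC. KKU-100 had 1259, 1003 and 1227 CPM against 567, 650.5 and 556. The hairpin library was the lower in 3 of 3 pairs of each line, with paired log2 fold changes in HuCCT1, YSCCC and KKU-100 of -0.89, -1.16 and -0.97, and adjusted p of 0.136, 0.000307 and 0.0462 (edgeR quasi-likelihood test, Benjamini-Hochberg over all genes). In HuCCT1 the RNF213 fold change thus missed the threshold of 0.05, and its groups overlapped only through shRNF213 replicate 2. Of the biliary markers, KRT7, KRT19, EPCAM, SOX9 and CDH1 were all present in HuCCT1 and YSCCC, whereas KKU-100 had at most 3 EPCAM counts, 4 KRT19 counts and 102 CDH1 counts in any library, with KRT7 and SOX9 present.

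All 38 mitosis genes were detected in every library, but their summed level differed between replicates of the same group far more in YSCCC and KKU-100 than in HuCCT1. In HuCCT1 the 38 genes together made up 6003, 6011 and 8313 CPM in shControl and 6779, 5427 and 8807 in shRNF213. In YSCCC they made up 3895, 3424 and 1045 CPM in shControl and 4296, 4328 and 973 in shRNF213. In KKU-100 the sums were 1677, 318 and 462 CPM in shControl and 2034, 339 and 1759 in shRNF213. YSCCC replicate 3 was thus low under both hairpins, KKU-100 replicate 2 was low under both, and KKU-100 replicate 3 was low under shControl and high under shRNF213. The highest replicate exceeded the lowest by 1.38-fold and 1.62-fold in the HuCCT1 groups. The YSCCC ranges were 3.73-fold and 4.45-fold, and those of KKU-100 5.27-fold and 5.99-fold.

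**Figure D1:**
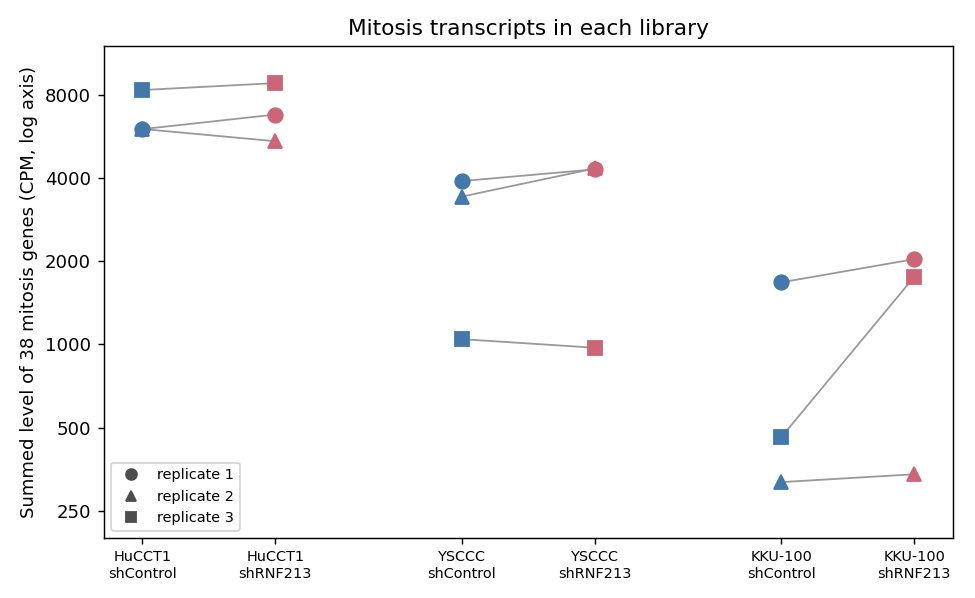
Summed level of the 38 mitosis genes in CPM (log axis) in each of the 18 libraries, by line and hairpin, with lines joining libraries of the same replicate number. YSCCC replicate 3 lies at 1045 and 973 CPM under the 2 hairpins, and the KKU-100 replicate 3 pair runs from 462 to 1759 CPM.

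The members moved together. In YSCCC, replicate 3 was the lowest library for 38 of 38 members in both groups. In KKU-100 shControl, replicate 1 was the highest for 38 of 38, and in KKU-100 shRNF213 replicate 2 was the lowest for 38 of 38 with replicates 1 and 3 both above the group mean for every member. In HuCCT1, replicate 3 was the highest for 36 of 38 in each group, the exceptions being AURKB in both groups, CENPA under shControl and UBE2C under shRNF213. The median standard deviation (SD) of the members' log2 CPM over 3 replicates was 0.30 in HuCCT1 shControl and 0.36 in shRNF213, against 0.16 and 0.15 for all genes within the same range of levels. For YSCCC the members' median SD was 1.00 and 1.18 against 0.23 in each group. For KKU-100 it was 1.47 and 1.79 against 0.26 and 0.20.

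The size of the swing differed between members, also between members of the same role. KIF20A, the midzone kinesin that docks PLK1 for cytokinesis, had the largest SD in both HuCCT1 groups, 0.52 and 0.62, followed under shControl by the kinetochore kinesin KIF2C (0.46) and the microtubule-binding hyaluronan receptor HMMR (0.39). KIF20A stood at 159, 133 and 266 CPM in HuCCT1 shControl, while UBE2C, the ubiquitin-conjugating enzyme of the anaphase-promoting complex, stood at 118, 113 and 121 there with an SD of 0.05. The next smallest SDs under HuCCT1 shControl were those of CDK1 (0.17), CCNB2 (0.19) and the mitotic kinase PLK1 (0.19). In YSCCC shControl the proliferation antigen MKI67 ranged most, with 339, 287 and 50.3 CPM and an SD of 1.52, followed by SPC25 (1.38) and KIF11 (1.32). The smallest SDs in that group were those of NUF2 (0.66), CENPA (0.66) and MAD2L1 (0.71).

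In KKU-100 shControl the widest members were MKI67 (SD 2.28), KIF2C (2.22) and DLGAP5 (1.92). MKI67 stood at 99.5, 4.21 and 15.3 CPM there, and at 126, 5.95 and 103 in KKU-100 shRNF213. The Ndc80 complex subunit NUF2 had the largest SD of any member under shRNF213, 2.74, from levels of 13.0, 0.400 and 12.9 CPM. ECT2, the exchange factor that activates RhoA at the cleavage furrow, was the steadiest member in both KKU-100 groups, with 192, 86.5 and 108 CPM (SD 0.59) and 208, 98.9 and 157 CPM (SD 0.54). MAD2L1, the checkpoint protein that binds CDC20, followed with SDs of 0.70 and 0.69, and AURKA with 1.02 and 0.97. By role, the 7 centromere and kinetochore members summed to 161, 16.1 and 36.3 CPM in KKU-100 shControl, a 9.97-fold range. The 6 midzone members summed to 391, 122 and 155, a 3.21-fold range, but ECT2 alone gave 192, 86.5 and 108 of it, and the midzone member KIF20A went from 14.4 to 1.342 CPM.

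**Figure D2:**
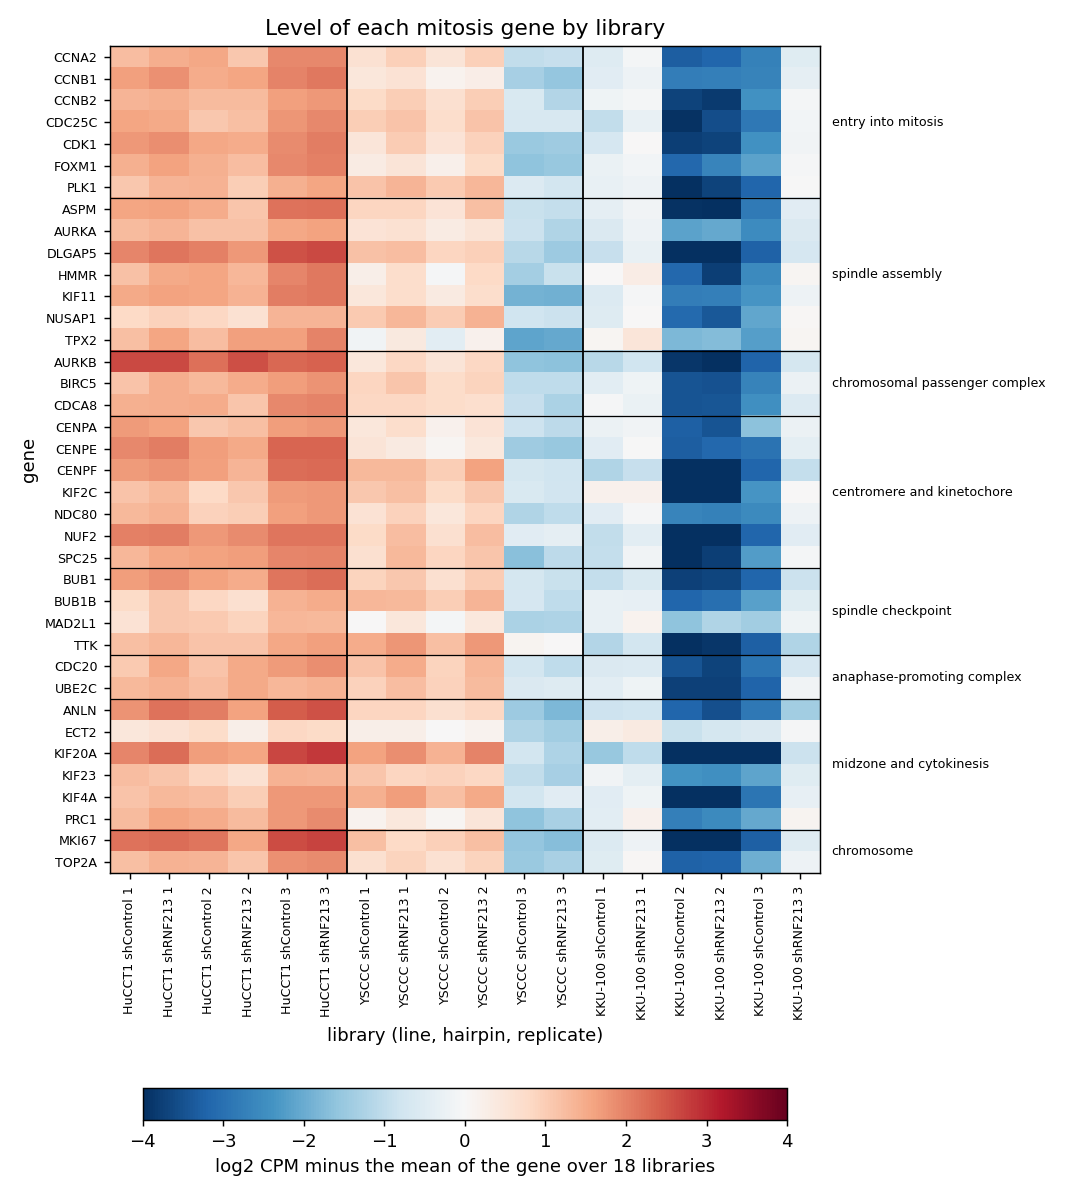
Level of each mitosis gene (rows, grouped by role) in each library (columns), as log2 CPM minus the gene's own mean over the 18 libraries, with red above and blue below that mean. Whole columns share a colour: YSCCC replicate 3 is blue under both hairpins, and the KKU-100 replicate 2 libraries and shControl replicate 3 are the bluest.

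Other gene lists shifted with the mitosis genes to different degrees, and their part in the spread was not tested. A list of 26 S phase genes made up 2278, 2525 and 774 CPM in YSCCC shControl, a 3.26-fold range near that of the mitosis genes, but 832, 618 and 599 CPM in KKU-100 shControl, a 1.39-fold range against 5.27-fold. A list of 8 endoplasmic reticulum stress and ATF4 target genes summed to 4682 CPM in YSCCC shControl replicate 3 and 3477 in shRNF213 replicate 3, against 1106 to 1270 in the other 4 YSCCC libraries. Fibroblast and endothelial marker sums were also lowest in YSCCC replicate 3. The 5 fibroblast markers summed to 137, 182 and 54.4 CPM in YSCCC shControl and 219.9, 249.8 and 36.5 in shRNF213, of which LUM alone gave 118, 165 and 43.1, then 206, 238 and 29.7. COL1A2 had at most 12 counts and PDGFRB at most 11 in any YSCCC library. The 3 endothelial markers summed to 77.1, 60.2 and 15.03 CPM, then 86.0, 98.2 and 28.8, nearly all of it CDH5, with at most 23 VWF counts. An interferon-stimulated list of 8 genes reached 4686 and 4782 CPM in the HuCCT1 replicate 2 libraries and 303 to 648 in the other 4. Within its own group of 3 libraries, HuCCT1 shRNF213 replicate 2 was the lowest for 33 of 38 members, whereas shControl replicate 2 was the lowest for 19 and shControl replicate 1 for the other 19. The cyclin-dependent kinase inhibitor CDKN1A stood at 533, 832 and 275 CPM in KKU-100 shControl and 577, 618 and 326 in shRNF213. It was highest in replicate 2 and lowest in replicate 3 of each group. The whole list of 21 G1 and arrest genes, which includes CDKN1A, summed to 2587, 2802 and 1735 CPM in KKU-100 shControl. Under shRNF213 that list summed to 2538, 2525 and 1986 CPM, so replicate 2 was not its highest library there.

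Because the members moved together, their promoters were read for the 2 sequence words known from genes of this phase. The CCAAT box binds NF-Y, and the cell cycle genes homology region (CHR) binds the DREAM complex in resting cells and the MYBL2 and FOXM1 complexes in dividing cells. Promoter sequences of 300 bases, from 250 bases before to 50 after an annotated start (RefSeq, GRCh38.p14), were found for 32 of the 38 genes, giving 38 windows since AURKB, CDC25C, CDK1 and ECT2 have more than 1. AURKA, BIRC5, FOXM1, TPX2, TTK and UBE2C had no entry. CCAAT on either strand occurred in 76.3% of the member windows against 34.6% of 35116 promoters in the same table. The CHR words TTTGAA or TTCGAA on either strand, which can share an end base with CCAAT, occurred in 76.3% against 16.4%. Both words were in 63.2% of member windows and 6.38% of all, and neither was in 10.5% against 55.4%. The upstream 130 bases of CCNB2, the cyclin B2 gene, at chr15:59105016-59105145 on the plus strand, are printed here because they hold both words, with 3 CCAAT boxes and the CHR in capitals, where 47.4% of member windows held 2 or more CCAAT:
CCNB2: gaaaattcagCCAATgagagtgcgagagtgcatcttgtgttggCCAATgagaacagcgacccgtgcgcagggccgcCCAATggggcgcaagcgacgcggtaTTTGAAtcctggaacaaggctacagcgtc
The first bases of these 3 boxes lay 120, 87 and 54 bases before the start, and the CHR 29 bases before it. A further CCAAT in the CCNB2 window began 244 bases before the start, outside the printed bases. Of all promoters in the same table, 10.8% held 2 or more CCAAT, against the 47.4% of member windows.

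Across the windows, 18 CCAAT matches began in the bin from 70 to 50 bases before the start and 14 CHR matches in the bin from 30 to 10 bases before it, the fullest bins of the plot of promoter elements. Windows of the same gene overlap, so a site can be counted in more than 1 window. The CHR with its flanks is printed for members with different roles, each 30 bases 5′ to 3′ on the gene's strand with the word in capitals, to show the word in its context:
CDK1: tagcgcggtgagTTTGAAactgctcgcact
PLK1: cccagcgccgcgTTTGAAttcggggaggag
HMMR: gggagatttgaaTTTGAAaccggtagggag
SPC25: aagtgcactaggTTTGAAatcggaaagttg
BUB1B: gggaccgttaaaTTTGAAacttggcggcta
PRC1: cccgtggcgcggTTTGAAattttgcggggc
KIF4A: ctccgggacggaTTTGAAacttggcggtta
MKI67: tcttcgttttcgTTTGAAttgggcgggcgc
They lie at chr10:60778453-60778482 (plus strand), chr16:23678848-23678877 (plus), chr5:163460598-163460627 (plus), chr2:168890416-168890445 (minus), chr15:40161034-40161063 (plus), chr15:90994538-90994567 (minus), chrX:70290058-70290087 (plus) and chr10:128126435-128126464 (minus), in that order. In HMMR a second TTTGAA stands directly before the first, 28 and 22 bases upstream of the start. These letters were not found in the windows of AURKB, CCNA2, CCNB1, CENPE, KIF20A and KIF2C. A match describes the sequence and not the binding of a factor.

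**Figure D3:**
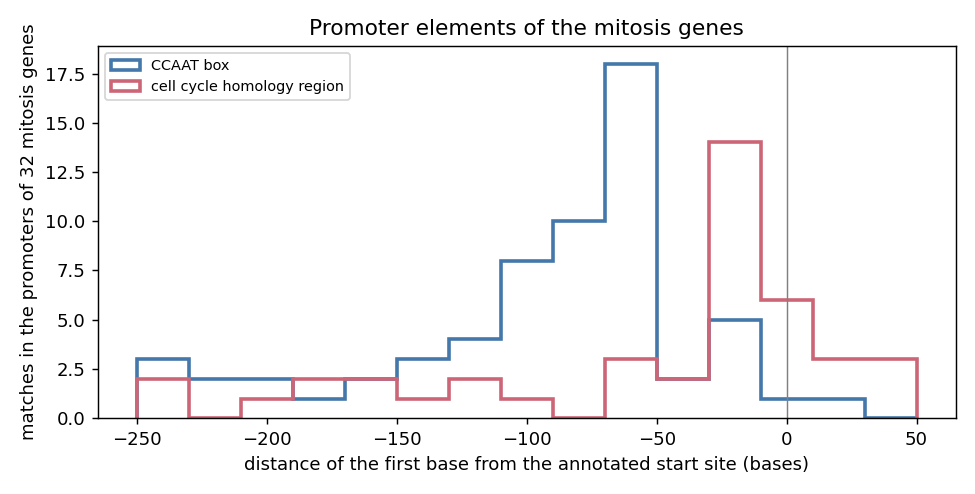
Number of CCAAT and CHR matches in the promoter windows of 32 mitosis genes, by the distance of the first base from the annotated start, in bins of 20 bases. CCAAT matches peak at 18 between 70 and 50 bases upstream, and CHR matches at 14 between 30 and 10 bases upstream.

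Between the lines, the mitosis genes were highest in HuCCT1, lower in YSCCC and lowest in KKU-100 when the shControl libraries were compared. The median difference of the 38 members was -1.35 on the log2 scale for YSCCC minus HuCCT1, against 0.02 over all 18010 genes tested, and -3.03 for KKU-100 minus HuCCT1, against -0.01. For YSCCC minus KKU-100 it was 1.88, against 0.09. All 38 members were below HuCCT1 in each of the other lines, and all 38 were higher in YSCCC than in KKU-100 by their fitted differences. With edgeR, 12 of 38 members were called lower in YSCCC than in HuCCT1 and 0 higher, where 28.1% of all genes were called lower and 30.2% higher. The members' share called lower in YSCCC was thus close to that of all genes. All 38 of 38 were called lower in KKU-100 than in HuCCT1, where 30.1% of all genes were and 57.4% were called in either direction. Called higher in YSCCC than in KKU-100 were 24 of 38, where 32.9% of genes were and 60.7% were called in either direction.

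The count for YSCCC against HuCCT1 rested on the replicates. It was 2 without HuCCT1 shControl replicate 3, 5 or 6 without either of the other HuCCT1 controls, 4 without YSCCC shControl replicate 3, and 5 without YSCCC shControl replicate 2, but 12 without YSCCC shControl replicate 1. It was 6 in the shRNF213 libraries. For YSCCC against KKU-100 the count of 24 became 37 without KKU-100 shControl replicate 1, 34 without YSCCC shControl replicate 3, 14 and 10 without the other YSCCC controls, and 12 and 6 without KKU-100 shControl replicates 2 and 3, and it was 7 in the shRNF213 libraries. For KKU-100 against HuCCT1 it stayed between 36 and 38 when any shControl library was left out, was 34 with DESeq2, and was 35 in the shRNF213 libraries. No share of all genes called is given here for these alternative fits, so a change in these counts is not set against a background. Without regard to the model, 30 of 38 members had every YSCCC control library below every HuCCT1 control, where 32.6% of all genes did. All 38 did so for KKU-100 against HuCCT1, where 34.4% of genes did. Only 6 members, BUB1, CDC25C, CENPF, KIF20A, NUF2 and TTK, had every YSCCC control above every KKU-100 control, where 35.3% of genes did.

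**Figure D4:**
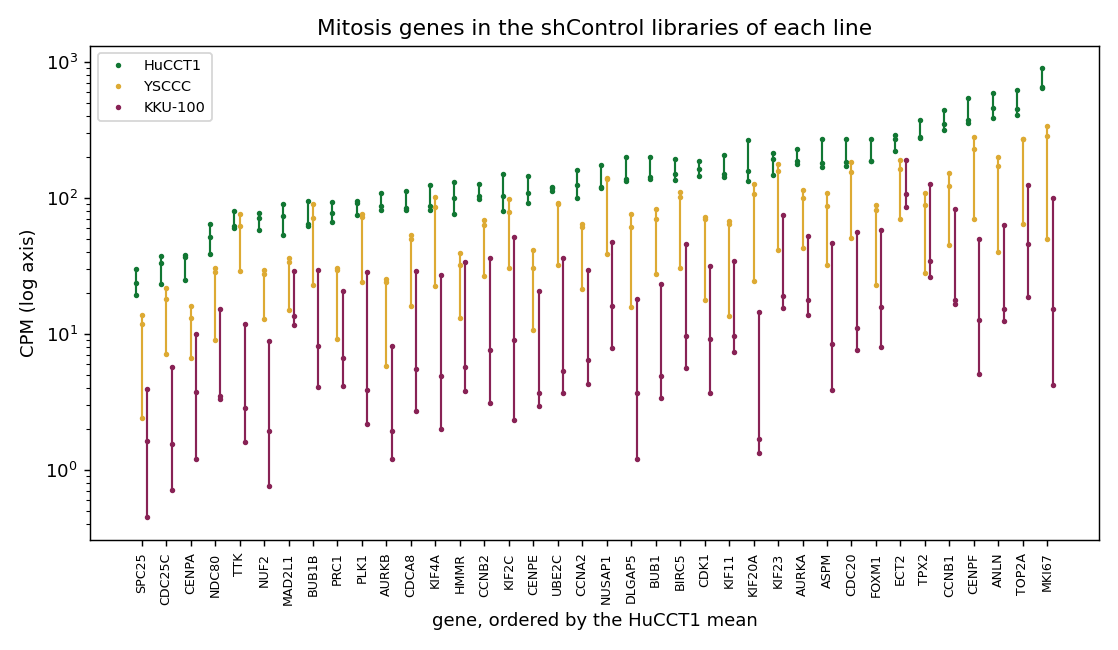
CPM (log axis) of each mitosis gene in the 3 shControl libraries of each line, one point per library with a bar from the lowest to the highest, genes ordered by their HuCCT1 mean. Every KKU-100 bar lies below the HuCCT1 bar of the same gene, while most YSCCC and KKU-100 bars overlap.

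Among the spindle genes, TPX2, which targets and activates AURKA on the spindle, stood at 274, 280.3 and 377 CPM in HuCCT1 shControl and 109.6, 89.3 and 27.9 in YSCCC shControl, a log2 difference of -2.07 ± 0.61 (SE, adjusted p = 0.0144, edgeR). KKU-100 had 126, 34.4 and 26.3 CPM of TPX2, so YSCCC and KKU-100 overlapped for this gene (log2 difference 0.25 ± 0.59, adjusted p = 0.73). HMMR was at 76.1, 100.2 and 130.4 CPM in HuCCT1 and 39.1, 32.1 and 13.0 in YSCCC, a log2 difference of -1.90 ± 0.71 (adjusted p = 0.0407). All 3 YSCCC controls were below all 3 HuCCT1 controls for both genes. DLGAP5, which bundles spindle microtubules near chromosomes, was at 133, 138 and 199 CPM in HuCCT1 against 18.2, 1.21 and 3.67 in KKU-100 (-4.36 ± 0.89, adjusted p = 0.00179), with YSCCC between at 76.7, 61.5 and 15.9.

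AURKB, the kinase of the chromosomal passenger complex, had the largest difference of any member between YSCCC and HuCCT1. It stood at 109.7, 81.9 and 86.7 CPM in HuCCT1 and 24.2, 25.3 and 5.85 in YSCCC. KKU-100 had 8.18, 1.21 and 1.93 CPM of AURKB. The log2 differences from HuCCT1 were -2.36 ± 0.66 (adjusted p = 0.0108) in YSCCC and -4.63 ± 0.74 (adjusted p = 0.000411) in KKU-100 with edgeR. CCNB1, the cyclin that activates CDK1, was at 352, 315 and 447 CPM in HuCCT1 and 154, 124 and 44.9 in YSCCC (-1.82 ± 0.62, adjusted p = 0.0274).

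At the kinetochore, the motor CENPE was at 109, 91.5 and 144 CPM in HuCCT1 and 41.4, 30.4 and 10.8 in YSCCC (-2.09 ± 0.69, adjusted p = 0.0241, edgeR). CENPF was at 376, 354 and 545 CPM in HuCCT1 against 49.6, 5.10 and 12.7 in KKU-100 (-4.25 ± 0.80, adjusted p = 0.00109), and at 279.7, 228.5 and 70.5 in YSCCC, above every KKU-100 control (3.08 ± 0.75, adjusted p = 0.00513). NUF2 was at 71.5, 58.5 and 77.9 CPM in HuCCT1 and 29.6, 27.5 and 12.9 in YSCCC, while KKU-100 had 8.95, 0.761 and 1.93. The order HuCCT1, YSCCC, KKU-100 held for NUF2 with no overlap between any of the lines. For TTK, the kinase that starts checkpoint signalling, YSCCC at 76.2, 62.6 and 29.3 CPM overlapped HuCCT1 at 62.8, 59.8 and 79.7 (-0.30 ± 0.58, adjusted p = 0.677). Every YSCCC control stood above all KKU-100 controls, at 11.9, 1.61 and 2.85 CPM (3.34 ± 0.65, adjusted p = 0.00126).

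Of the midzone genes, KIF20A showed the largest difference of any member between KKU-100 and HuCCT1. It was at 14.4, 1.342 and 1.69 CPM in KKU-100 shControl, a log2 difference of -5.01 ± 0.95 (adjusted p = 0.00117, edgeR), and at 127, 107 and 24.7 in YSCCC. The chromokinesin KIF4A was at 101, 86.1 and 22.7 CPM in YSCCC and 27.3, 2.01 and 4.92 in KKU-100 (2.59 ± 0.83, adjusted p = 0.0196), with the groups overlapping. ANLN, the scaffold of the contractile ring, stood at 389, 459 and 591 CPM in HuCCT1 and 201, 172 and 40.3 in YSCCC (-1.83 ± 0.67, adjusted p = 0.0364). MKI67, which coats mitotic chromosomes, was at 656, 643 and 898 CPM in HuCCT1 and differed from KKU-100 by -4.21 ± 1.05 (adjusted p = 0.00600). ECT2 differed least of the members between KKU-100 and HuCCT1 (-1.02 ± 0.37, adjusted p = 0.0374) and its YSCCC and KKU-100 levels overlapped.

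Per transcript length, in the TPM values deposited by the authors, the order of the members was partly shared by the lines. In HuCCT1 shControl the highest were CCNB1 at 388 ± 83.6 TPM (SD, n = 3), UBE2C at 307 ± 17.76, CDC20 at 262 ± 74.7, ANLN at 234 ± 57.2 and AURKA at 209 ± 38.5. In YSCCC shControl they were UBE2C at 215 ± 95.5 TPM, CDC20 at 185 ± 93.9, CCNB1 at 126 ± 63.0, NUSAP1 at 113 ± 59.2 and AURKA at 103 ± 41.9. In KKU-100 shControl ECT2 led at 66.6 ± 26.4 TPM, ahead of CCNB1 at 41.6 ± 39.1, UBE2C at 40.0 ± 48.4, TPX2 at 37.6 ± 32.7 and CDC20 at 31.9 ± 34.1. Neighbours in each of these orders lay within their replicate spread. CENPE had the lowest TPM in each line, 27.8 ± 7.47, 7.45 ± 4.02 and 2.21 ± 2.39. The next lowest were MAD2L1, CDC25C, SPC25 and ASPM in HuCCT1, the same 4 in another order in YSCCC, and SPC25, CDC25C, TTK and ASPM in KKU-100.

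The RNF213 hairpin was compared with the control within pairs of the same replicate number. In HuCCT1, 0 of 38 members were called with edgeR, where 0.14% of all genes were called and 0.0254% called lower. At an unadjusted p under 0.05 were 3 of 38 members and 1743 of all 15747 genes tested, and DESeq2 called 1 member, TPX2. For the comparisons below, the number of all genes at this unadjusted p is not given, so those member counts are not set against a background. The median log2 fold change of the members was 0.05, against 0.00 over 15747 genes, and the medians within the pairs were 0.14, -0.13 and 0.08 (SD 0.14). By count, 11 members were higher in shRNF213 in 3 of 3 pairs, where 18.2% of genes were, and 1, KIF23, was lower in 3 of 3, where 18% were.

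TPX2 had the lowest p in HuCCT1, at 274, 280.3 and 377 CPM in shControl against 362, 371 and 474 in shRNF213. The pairs agreed closely, at 0.40, 0.40 and 0.33 on the log2 scale, but the groups overlapped, and the fitted change of 0.38 ± 0.08 (SE) had an adjusted p of 0.151 (edgeR). Without replicate 2 TPX2 was the 1 member called. CDC20, the activator of the anaphase-promoting complex, was at 171, 183 and 271 CPM against 242, 238 and 304, a fitted 0.35 ± 0.09 (adjusted p = 0.246). BIRC5, the survivin subunit of the passenger complex, was at 135, 150.4 and 194 against 167, 172 and 211 (0.21 ± 0.08, adjusted p = 0.412). UBE2C, at 118, 113 and 121 against 126, 138 and 127, was the single member whose groups did not overlap, where 4.76% of genes were higher and 3.76% lower without overlap, and its fitted change was 0.15 ± 0.08 (adjusted p = 0.521).

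In YSCCC, 2 of 38 members were called higher with edgeR, HMMR and TPX2, where 3.69% of genes were called higher, 4.56% lower and 8.25% in either direction. The members' share was close to that background. HMMR rose from 39.1, 32.1 and 13.0 CPM to 55.1, 58.4 and 18.1, by 0.62 ± 0.12 on the log2 scale (adjusted p = 0.00634). TPX2 rose from 109.6, 89.3 and 27.9 CPM to 156, 135 and 29.1, by 0.40 ± 0.11 (adjusted p = 0.0466). Both were higher in each of the 3 pairs, although replicate 3 lay far below the others and made the groups overlap, and the TPX2 pair of replicate 3 differed by only 0.06. In all, 14 members had an unadjusted p under 0.05.

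The YSCCC calls depended on which pair and block were used. No member was called without the pairing, without replicate 1 or without replicate 2, and 10 were called without replicate 3, CCNA2, CDC20, CDK1, FOXM1, HMMR, KIF20A, MAD2L1, NUF2, TPX2 and TTK. The share of all genes called without replicate 3 is not given here, so the 10 cannot be set against a background. No member was called in a model of all 18 libraries. The median log2 fold change was 0.19, against 0.01 over 16932 genes, with pair medians of 0.25, 0.35 and -0.07 (SD 0.22), and it was 0.31 without replicate 3. In 3 of 3 pairs 13 members were higher, where 22.6% of genes were, and CDCA8 and KIF23 were lower, where 21.8% were. All 7 entry genes and all 7 kinetochore members had positive fitted values, 0.02 to 0.33 and 0.04 to 0.49, while the midzone genes split 3 positive to 3 negative. KIF23, the motor of the centralspindlin complex, went from 177, 157 and 41.2 CPM to 149.8, 145 and 32.6 (-0.23 ± 0.09, adjusted p = 0.163). No member's groups were apart, where 5.52% of genes were higher and 5.17% lower without overlap.

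In KKU-100 all 38 members had positive fitted values, with a median of 0.89 against 0.00 over 14915 genes, and replicate 3 held the largest differences. The pair medians were 0.32, 0.06 and 2.29 on the log2 scale (SD 1.22). With edgeR 0 of 38 members were called, where 0.443% of genes were called, while 17 had an unadjusted p under 0.05 and DESeq2 called 2, MAD2L1 and PRC1. Without replicate 3 the median was 0.20 with 0 called, and without replicate 2 CDK1, NUSAP1 and TOP2A were called. In the model of all 18 libraries, where KKU-100 shared its spread with the other lines, 6 were called, CDC25C, CDK1, DLGAP5, MAD2L1, PRC1 and SPC25. RNF213 had an adjusted p of 0.0133 for KKU-100 in that model, against 0.0462 in the fit of KKU-100 alone (edgeR). The 0.443% is from the fit of KKU-100 alone, and the shares of genes called in the other fits are not given here. By count, 22 members were higher in 3 of 3 pairs, where 19.7% of genes were, and 0 were lower in 3 of 3, where 19.9% were. No member's groups were apart, where 5.75% of genes were higher and 6.79% lower without overlap.

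MAD2L1 had the lowest p in KKU-100, at 28.9, 11.7 and 13.7 CPM in shControl and 39.1, 15.6 and 31.6 in shRNF213. Its pairs differed by 0.44, 0.41 and 1.21, and the fitted change was 0.68 ± 0.18 (SE, adjusted p = 0.158, edgeR). SPC25, an Ndc80 complex subunit, was at 3.93, 0.447 and 1.64 CPM against 6.87, 0.560 and 7.32 (1.22 ± 0.37, adjusted p = 0.187). CDC25C, the phosphatase that switches CDK1 on, was at 5.69, 0.716 and 1.54 against 9.02, 0.959 and 10.3 (1.33 ± 0.44, adjusted p = 0.216). In each the third pair was the widest and the shControl and shRNF213 libraries overlapped. KIF20A had the largest fitted change of the members, 1.43 ± 0.63 (adjusted p = 0.313), from pairs of 0.50, 0.06 and 3.69, and ECT2 the smallest, 0.28 ± 0.12 (adjusted p = 0.314), from 0.11, 0.19 and 0.54. MKI67 had pairs of 0.35, 0.49 and 2.74.

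**Figure D5:**
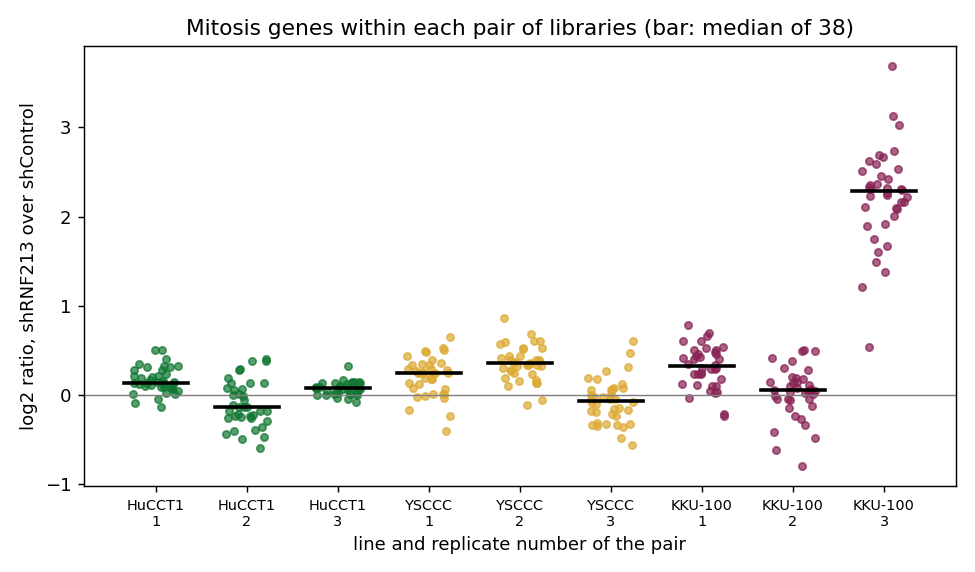
Log2 ratio of shRNF213 to shControl for each of the 38 mitosis genes within each pair of the same replicate number, with a bar at the median. In 8 of the 9 pairs the medians lie between -0.13 and 0.35, and in KKU-100 replicate 3 the median is 2.29.

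Averaged over the 3 lines with equal weight, 2 of 38 members were called higher with edgeR, SPC25 (0.62 ± 0.12, SE, adjusted p = 0.0157) and MAD2L1 (0.38 ± 0.09, adjusted p = 0.0466), where 1.43% of genes were called higher and 2.9% in either direction. All 38 fitted means were positive, with a median of 0.39 against 0.00 over 19143 genes, and 26 had an unadjusted p under 0.05. In HuCCT1 SPC25 was at 19.2, 23.6 and 29.9 CPM against 22.3, 24.6 and 30.1, and in YSCCC at 11.8, 13.8 and 2.397 against 18.7, 16.4 and 3.68. SPC25 and TPX2 were higher in 9 of 9 pairs, where 1.02% of genes were, and 0 members were lower in all 9, where 1.19% were. MAD2L1 was at 53.6, 73.2 and 90.3 CPM against 75.7, 67.0 and 87.7 in HuCCT1, where it was higher in 1 of 3 pairs, and at 36.5, 33.6 and 14.96 against 49.5, 48.3 and 15.1 in YSCCC, where it was higher in 3 of 3.

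This average leaned on KKU-100. The median was 0.15 without KKU-100 replicate 3, with SPC25 and TPX2 called, while 13 members were called without KKU-100 replicate 2 and 10 without KKU-100 replicate 1. The shares of all genes called in those fits are not given here, so the counts cannot be set against a background. Without HuCCT1 replicate 1 or YSCCC replicate 1 none was called, and without HuCCT1 replicate 2, HuCCT1 replicate 3 or YSCCC replicate 2 only SPC25 was. DESeq2 called 5 members, CDC25C, MAD2L1, PRC1, SPC25 and TTK, and none was called without the pairing. KIF23 had the smallest mean change, 0.02 ± 0.13, and was the member lower in 3 of 3 pairs in both HuCCT1 and YSCCC.

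The hairpin effect was also tested for differences between lines, and no member was called in any of the 3 comparisons with edgeR. For KKU-100 minus HuCCT1 0.235% of genes were called and 0.0731% called lower, 24 members had an unadjusted p under 0.05 and DESeq2 called 1, SPC25. The lowest p belonged to SPC25 (difference 1.19 ± 0.32, SE, adjusted p = 0.137), CDC25C (1.29 ± 0.39, adjusted p = 0.183) and DLGAP5 (1.25 ± 0.38, adjusted p = 0.194). For YSCCC minus KKU-100 2.63% of genes were called, 0.993% higher, 10 members had an unadjusted p under 0.05 and DESeq2 called 0. DLGAP5 (-1.28 ± 0.39, adjusted p = 0.0906), CDC25C (-1.16 ± 0.39, adjusted p = 0.130) and MKI67 (-1.34 ± 0.47, adjusted p = 0.140) came first. For YSCCC minus HuCCT1 0.047% of genes were called, 0.0366% higher and 0.0104% lower, no member had an unadjusted p under 0.05 and DESeq2 called 0. The leading members there were SPC25 (0.40 ± 0.27, adjusted p = 0.708), HMMR (0.54 ± 0.46, adjusted p = 0.789) and CCNA2 (0.37 ± 0.34, adjusted p = 0.812). Without KKU-100 replicate 2 CDK1 and TOP2A were called for KKU-100 minus HuCCT1 and DLGAP5 for YSCCC minus KKU-100, and without KKU-100 replicate 1 CDC25C, DLGAP5 and MKI67 were called for the latter. The hairpin effects of the lines share no libraries, but each difference between lines shares a line with the other differences.

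Beyond the 38, 154 genes of the same processes were listed in 6 groups, and their calls are given beside the share over all genes. These groups too were chosen with earlier results of these data known. In HuCCT1 1 of 153 tested was called, where 0.14% of genes were, the replication helicase subunit MCM7, which rose by 0.64 ± 0.09 (adjusted p = 0.0398, edgeR). In YSCCC 13 of 151 rose, where 3.69% of genes did, and 2 fell, where 4.56% did, with a median of 0.12. In KKU-100 edgeR called 0 of 151, where 0.443% of genes were called, with a median of 0.26 and 30 at an unadjusted p under 0.05. These calls turned with the model: without the pairing 0 were called in YSCCC, and the model of all 18 libraries called 6 higher and 0 lower in YSCCC and 11 higher and 1 lower in KKU-100. The shares of all genes called per line in that model are not given here. Of 35 further kinetochore and centromere genes, 6 rose in YSCCC, among them SKA2 (0.56 ± 0.11), NSL1 (0.50 ± 0.10), CENPK (0.45 ± 0.12) and BUB3 (0.43 ± 0.10). None of 27 spindle and cytokinesis genes was called there. In the condensin, cohesin and separase group of 16, the cohesin ring subunits went apart: RAD21 rose by 0.45 ± 0.09 and SMC1A fell by 0.49 ± 0.10. Of 29 entry regulators the inhibitory kinase WEE1 rose (0.45 ± 0.11), and of 26 S phase genes MCM7 (0.97 ± 0.10), E2F1 (0.42 ± 0.10) and MCM4 (0.36 ± 0.09) rose. Of 18 tested G1 and arrest genes CDKN1B and RBL1 rose (0.42 ± 0.11 each) and GADD45A fell by 0.58 ± 0.09.

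Averaged over the lines, 9 of the 154 rose, where 1.43% of genes did, and 1 fell, where 1.47% did. MCM7 rose most (0.66 ± 0.07, adjusted p = 0.000248, edgeR), followed by SPC24 (0.61 ± 0.12), the partner of SPC25 in the Ndc80 complex, and MYBL2 (0.58 ± 0.12), the transcription factor that acts at the CHR. SPC24 stood at 37.5, 30.6 and 51.6 CPM against 48.2, 50.4 and 59.2 in HuCCT1 and at 24.7, 24.8 and 4.90 against 32.4, 32.9 and 7.03 in YSCCC. KKU-100 had 1.91, 1.12 and 1.40 CPM of SPC24 against 3.15, 1.16 and 4.88, so shRNF213 was the higher in each of the 9 pairs. E2F1 (0.50 ± 0.12), ZWINT (0.48 ± 0.11), CDC25B (0.34 ± 0.09), CENPK (0.33 ± 0.07) and SKA2 (0.29 ± 0.05) also rose. SMC1A fell by 0.42 ± 0.08. The median over the 154 was 0.17, against 0.39 for the mitosis genes and 0.00 over all genes tested.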

How the data were processed

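Each library's deposited table gave the authors' raw gene counts, a scaled count, FPKM, TPM and mean coverage per gene, per the file headers. The raw counts were used for tests and CPM, and the deposited TPM for levels between genes; the deposited FPKM and coverage signal were not analysed further. The deposited scaled count was the raw count times 1 constant per library. The submitters' processing notes name STAR 2.5.1b, HTSeq 0.6.1p1, StringTie 2.1.6, Picard 1.139, FastQC 0.11.9, DESeq2 1.34.0 and GRCh38. For strand setting and annotation, nothing was given in the sources used here. Total counts were 21056732 to 25502097 per library.

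Counts were fitted per line with edgeR 4.0.16 (R 4.3.3, limma 3.58.1), using TMM scaling, filterByExpr with a minimum count of 10 and a total of 15, the quasi-likelihood test with the replicate number as a block, and Benjamini-Hochberg adjustment over all genes tested, with 0.05 as threshold. The mean over lines and the differences between lines came from 1 model of all 18 libraries with a block per line and replicate, and shControl levels from the 9 control libraries without a block. log2 CPM used a prior count of 2. DESeq2 1.42.0 was an alternative with the design and filter of the main fit. The other alternatives kept edgeR. They used relative log expression size factors, no block, no filter, an 18-library model, each pair left out, or each library left out without the block. Levels between lines were also fitted with a replicate block and in the shRNF213 libraries. The code was tested on simulated data.

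The labels call the replicates biological and do not say that a number marks a shared day. The pairing was checked on deviations from group means over genes with mean log2 CPM over 3: same-number libraries of HuCCT1 correlated at 0.787, 0.706 and 0.763. Those of YSCCC correlated at 0.819, 0.724 and 0.902, and those of KKU-100 at 0.73, 0.6 and 0.406. Some different numbers did too, such as YSCCC shControl 2 with shRNF213 1 at 0.657. Over the 38 members alone, same-number libraries correlated at 0.527, 0.325 and 0.812 in HuCCT1 and at 0.565, 0.585 and 0.83 in YSCCC. In KKU-100 these were 0.83, 0.858 and 0.169, so the pairing was weakest for the members in KKU-100 replicate 3. There shRNF213 3 correlated at 0.784 with shControl 1, and YSCCC shControl 1 at 0.719 with shRNF213 2.

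The members and lists were chosen with earlier results of these data known. Every-sample values are given for up to 6 called members per direction with the largest change, or for the 3 with the lowest p where none was called, for the 3 with the largest and smallest SD, and for up to 4 called genes per direction of the other lists. Other members shown were chosen after their values were seen.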

Additional observations from a re-analysis of the deposited data

How the results depend on the processing

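Of 127 alternative counts of called members, 82 stayed within 1.5 times the reported count, where a count of 0 that stayed 0 also passed. Where the reported count was not 0, 2 stayed and 12 moved in YSCCC, and 3 stayed and 10 moved for the mean. For shControl levels 5 stayed and 6 moved for YSCCC minus HuCCT1, and likewise for YSCCC minus KKU-100. All 11 stayed for KKU-100 minus HuCCT1. Of 88 alternative medians, 82 moved by less than an SD set as yardstick. This SD was that of the pair medians for each line, and of all 9 pair medians for the mean over lines. For shControl levels it combined the SDs of the library medians of the 2 lines. In KKU-100 it was 1.217, from pair medians of 0.323, 0.055 and 2.285. A median that moved by less than this SD thus says little about stability there or for the mean. DESeq2 called 1 member in HuCCT1, 2 in KKU-100, 5 for the mean over lines and 1 for KKU-100 minus HuCCT1. Without the replicate block 0 members were called in YSCCC and 0 for the mean. Without a filter on low counts 5 were called in YSCCC, 20 for the mean, 6 for KKU-100 minus HuCCT1 and 3 for YSCCC minus KKU-100. The 18-library model called 0 in YSCCC and 6 in KKU-100. In the shRNF213 libraries 6 members were called between YSCCC and HuCCT1 and 7 between YSCCC and KKU-100. With the replicate block, the shControl comparisons called 17, 38 and 31 members for YSCCC minus HuCCT1, KKU-100 minus HuCCT1 and YSCCC minus KKU-100. Leaving out 1 pair in turn gave 0 to 1 calls in HuCCT1, 0 to 10 in YSCCC, 0 to 3 in KKU-100 and 0 to 13 for the mean, and medians of -0.035 to 0.09, 0.058 to 0.308, 0.199 to 1.284 and 0.154 to 0.558. Leaving out single libraries, in fits that also dropped the replicate block, gave 0 calls per line and medians of -0.133 to 0.209, -0.118 to 0.691 (0.546 without YSCCC shControl replicate 1) and 0.446 to 2.203. Differences between hairpin effects gave 0 to 2, 0 to 0 and 0 to 3 calls for KKU-100 minus HuCCT1, YSCCC minus HuCCT1 and YSCCC minus KKU-100. The shControl comparisons gave 2 to 12, 36 to 38 and 6 to 37 calls for YSCCC minus HuCCT1, KKU-100 minus HuCCT1 and YSCCC minus KKU-100, with medians of -1.597 to -0.909, -4.501 to -2.611 and 1.455 to 3.263. Apart from what fewer samples, a dropped block or more genes tested bring by construction, the cause was not tested. The shares of all genes called in these alternative fits are not given here. The lowest count of any member was 10, for NUF2 and SPC25 in 1 KKU-100 library each, so counting error is largest in that line.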
